A study of Homo sapiens with 6 samples.

Results

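The peaks described here are those of 4 ChIP-seq peak lists whose midpoint lay in 1 of 14 pericentromeric windows of the human genome (hg38). The windows, chosen with earlier results of these data known, were bounded by position, at 120 to 145 Mb of chromosome 1, 87 to 98 of chromosome 2, 89 to 95 of chromosome 3, 48 to 54 of chromosome 4, 45 to 51 of chromosome 5, 57 to 63 of chromosome 7, 40 to 66 of chromosome 9, 38 to 43 of chromosome 10, 31 to 47 of chromosome 16, 21 to 28 of chromosome 17, 15 to 21 of chromosome 18, 25 to 31 of chromosome 20, 5 to 14 of chromosome 21 and 10 to 19 of chromosome 22. They held 2171 of the 23953 peaks. For 82-kDa ChAT these were 1036 of 8270 peaks after vehicle and 384 of 6563 after Aβ, and for SATB1 418 of 3065 after vehicle and 333 of 6055 after Aβ.

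The cells were SH-SY5Y, a human neuroblastoma line, here stably expressing 82-kDa ChAT (the nuclear form of choline acetyltransferase) and differentiated with retinoic acid for 3 days. Cells from 3 plates per treatment received either vehicle (Ham's F-12 medium) or 100 nM oligomeric Aβ1–42 for 4 h, and chromatin was precipitated with an antibody to the C-terminus of ChAT made by the study's laboratory or with an antibody to SATB1, a nuclear matrix protein that binds AT-rich DNA. There was 1 library for each protein and treatment, so the values below have no replicate error and the treatments were compared without a test. Both proteins of a treatment were set against the same input library, and the input libraries were not analysed here.

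Human centromeres rest on alpha satellite, a family of AT-rich monomers repeated head to tail, some of which carry the CENP-B box, the binding motif of centromere protein B. The heterochromatin beside it holds satellites 2 and 3, built on a short pentamer (CATTC, or GAATG on the other strand), and the short arms of the acrocentric chromosomes also carry the ribosomal DNA units. Because their copies are so alike, reads from these regions often cannot be assigned to a single copy. The comparison asked where in these repeats the 2 proteins were mapped, and how the peaks differed between the treatments.

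The sequences below show the kinds of DNA that made up most of these peaks, in hg38 and on the plus strand. The first set is the peak of at most 300 nt with the densest CATTC in each list, and capitals mark CATTC and its reverse complement GAATG. All of them were intergenic in GENCODE release 44.
82-kDa ChAT after vehicle, chr17:26844425-26844503: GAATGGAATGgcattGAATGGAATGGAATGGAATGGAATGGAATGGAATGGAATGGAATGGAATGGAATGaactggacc
82-kDa ChAT after Aβ, chr22:16358743-16358827: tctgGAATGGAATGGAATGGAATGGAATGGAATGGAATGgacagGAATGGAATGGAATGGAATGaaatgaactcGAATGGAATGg
SATB1 after vehicle, chr22:16347163-16347336: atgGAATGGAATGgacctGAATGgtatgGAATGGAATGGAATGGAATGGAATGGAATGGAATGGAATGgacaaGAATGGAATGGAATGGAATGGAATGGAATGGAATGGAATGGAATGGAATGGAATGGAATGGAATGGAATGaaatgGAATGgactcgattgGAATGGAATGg
SATB1 after Aβ, chr21:10668096-10668302: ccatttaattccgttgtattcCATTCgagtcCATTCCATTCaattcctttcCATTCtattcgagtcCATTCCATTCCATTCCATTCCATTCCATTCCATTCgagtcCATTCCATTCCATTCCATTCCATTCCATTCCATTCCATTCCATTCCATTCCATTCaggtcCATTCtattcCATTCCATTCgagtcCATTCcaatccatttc

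The second set is the middle 150 nt of the peak with the highest score in the windows for 82-kDa ChAT, with the same capitals. The highest peak for SATB1 after Aβ is left out because it lay over the same stretch of chromosome 4 as that of 82-kDa ChAT after vehicle.
82-kDa ChAT after vehicle, chr4:49108534-49108683: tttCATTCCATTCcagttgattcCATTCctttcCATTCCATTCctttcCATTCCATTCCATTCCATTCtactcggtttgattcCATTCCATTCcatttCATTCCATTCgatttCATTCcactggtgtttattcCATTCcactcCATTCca
82-kDa ChAT after Aβ, chr5:49658276-49658425: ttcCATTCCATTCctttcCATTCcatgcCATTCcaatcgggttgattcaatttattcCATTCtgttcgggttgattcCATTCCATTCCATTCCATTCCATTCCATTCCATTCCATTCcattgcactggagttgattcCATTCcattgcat

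The third set is alpha satellite. Capitals mark the CENP-B box, searched on both strands as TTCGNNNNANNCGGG, a motif that may share bases with CATTC. The peaks shown are the highest-scoring ones of at most 300 nt with a box among the peaks for SATB1 in chromosome 1, chromosome 5 and chromosome 20 alpha satellite, and all were intergenic. The chromosome 1 peak matched the chromosome 5 peak at 164 of 166 aligned bases (98.8%).
SATB1 after Aβ, chr1:124288189-124288354: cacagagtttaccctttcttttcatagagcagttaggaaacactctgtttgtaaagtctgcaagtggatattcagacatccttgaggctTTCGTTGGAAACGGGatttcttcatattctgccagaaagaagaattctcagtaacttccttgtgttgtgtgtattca
SATB1 after Aβ, chr5:49520541-49520749: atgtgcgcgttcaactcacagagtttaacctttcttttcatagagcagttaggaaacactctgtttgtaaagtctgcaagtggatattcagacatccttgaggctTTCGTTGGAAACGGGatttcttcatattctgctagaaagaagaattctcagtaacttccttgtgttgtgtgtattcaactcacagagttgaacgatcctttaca
SATB1 after vehicle, chr20:26852507-26852580: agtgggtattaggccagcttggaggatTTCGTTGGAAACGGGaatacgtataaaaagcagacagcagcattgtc

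The windows took a larger share of the peaks after vehicle than after Aβ for 82-kDa ChAT, and for SATB1 when peaks that match Alu elements (short interspersed repeats) were counted. For 82-kDa ChAT the share was 12.5% after vehicle (95% Clopper-Pearson interval 11.8 to 13.3) and 5.85% after Aβ (interval 5.30 to 6.45), which differ by -6.68 percentage points (interval -7.59 to -5.76). For SATB1 it was 13.6% after vehicle (interval 12.4 to 14.9) and 5.50% after Aβ (interval 4.94 to 6.10), a difference of -8.14 points (interval -9.48 to -6.79). Outside the windows the peaks for SATB1 that match Alu numbered 232 after vehicle and 4221 after Aβ. With all Alu matches left out (a setting added after seeing the data), the SATB1 share was 14.3% after vehicle (403 of 2818) and 15% after Aβ (265 of 1766), a difference of 0.705 points (interval -1.40 to 2.81), and that for 82-kDa ChAT was 13% and 6.34%, a difference of -6.65 points (interval -7.62 to -5.67). All intervals here cover counting error only and treat peaks as independent, which neighbouring peaks are not. The number of reads is given for the libraries together, as a range, and not for each list, so these numbers could not be set against depth.

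The windows span 144 Mb, of which 95 Mb are determined bases, 3.23% of those of chromosomes 1 to 22, X and Y. Peaks for 82-kDa ChAT stood at 10.9 per Mb of the windows after vehicle against 2.26 per Mb of the rest of these chromosomes, 4.83 times as dense. After Aβ they stood at 4.04 against 2.10 per Mb, a ratio of 1.93. For SATB1 the densities were 4.4 and 0.868 per Mb after vehicle, a ratio of 5.07, and 3.51 and 1.94 per Mb after Aβ, a ratio of 1.80. Outside the windows the peaks for SATB1 were denser after Aβ, while inside them they were sparser. Without Alu matches they were fewer after Aβ on both sides, with 2415 and 1501 outside and 403 and 265 inside. In covered bases the windows weighed more than in peaks, at 22.6% of all bases under peaks for 82-kDa ChAT after vehicle, 16.2% after Aβ, 25.1% for SATB1 after vehicle and 12.1% after Aβ.

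The windows did not share the peaks evenly. After vehicle, each of the 14 windows was denser than the rest of its own chromosome for both proteins, by 1.13 times (chromosome 18) to 15.7 times (chromosome 10) for 82-kDa ChAT and by 1.86 times (chromosome 7) to 14.2 times (chromosome 10) for SATB1. After Aβ this held for 11 of 14 windows for 82-kDa ChAT, with a highest ratio of 5.78, and for 9 of 14 for SATB1, with a highest ratio of 4.75 and Alu matches counted on both sides. The number of peaks for 82-kDa ChAT was lower after Aβ in all 14 windows, with 0.232 (chromosome 7) to 0.565 (chromosome 4) times the vehicle number. For SATB1 it was lower in 10 windows and higher in 3, on chromosomes 1, 5 and 7, and equal in that of chromosome 3. The chromosome 5 window held 15 peaks for SATB1 after vehicle and 44 after Aβ, and that of chromosome 20 held 46 and 12.

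**Figure D1:**
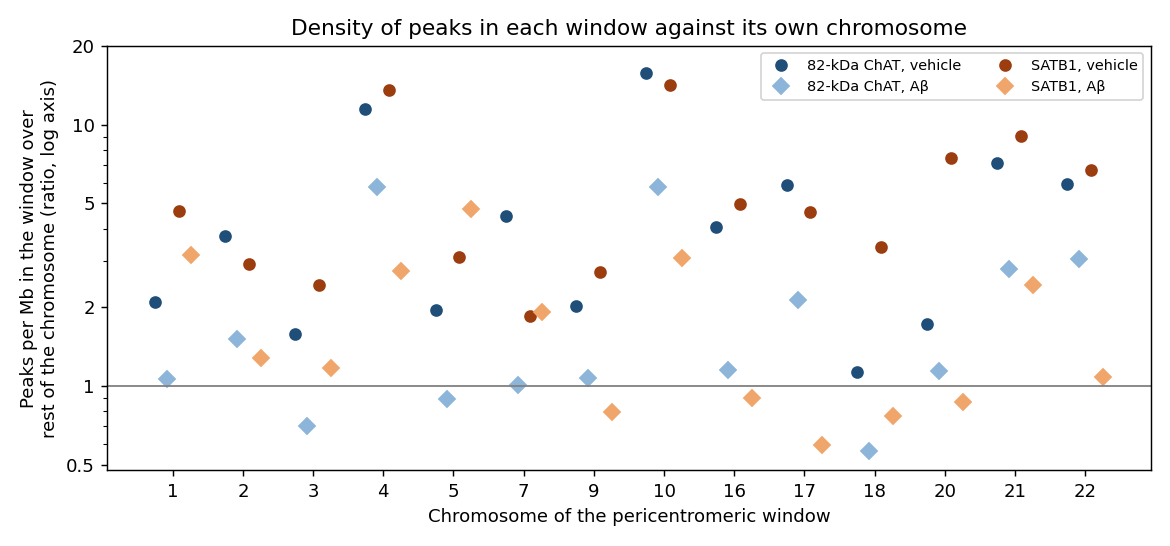
Peaks per Mb of determined bases in each pericentromeric window divided by peaks per Mb in the rest of the same chromosome (log axis), for each of the 4 lists, with 1 library per point and a line at equal density. Vehicle points (circles) lie above 1 in all 14 windows, the highest at 15.7 for 82-kDa ChAT on chromosome 10, and 3 of 14 points for 82-kDa ChAT and 5 of 14 for SATB1 after Aβ (diamonds) lie below 1.

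Sequences rich in CATTC made up most of what 82-kDa ChAT had in the windows after vehicle. A peak was called rich with at least 3 pentamers per 100 nt on either strand. For 82-kDa ChAT, 661 of 1036 peaks were rich after vehicle (63.8%, interval 60.8 to 66.7, against 19.5% of the whole list) and 165 of 384 after Aβ (43.0%, interval 38.0 to 48.1, against 5.10% of the whole list). For SATB1, 99 of 418 were rich after vehicle (23.7%, interval 19.7 to 28.1, against 7.70%) and 61 of 333 after Aβ (18.3%, interval 14.3 to 22.9, against 2.06%). The share fell by 20.8 points after Aβ for 82-kDa ChAT (interval -26.6 to -15.1). For SATB1 the difference of -5.37 points had an interval that included 0 (-11.2 to 0.454), and it was 0.190 points (interval -6.33 to 6.71) without Alu matches.

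These satellites are a small part of the determined sequence of the windows. Cut into tiles of 200 nt, 1.85% of it was rich in CATTC, or 1.76 Mb, against 0.0986% of the rest of the assembly. Undetermined bases were not tiled, so any satellite in them is missing from these shares and from the rates below. For example, 6.94 Mb were determined at 120 to 145 Mb of chromosome 1 and 9.97 Mb at 40 to 66 Mb of chromosome 9. Per Mb of rich tiles there were 377 rich peaks for 82-kDa ChAT after vehicle, 94 after Aβ, 56.4 for SATB1 after vehicle and 34.8 after Aβ. In the rest of the assembly these rates were 325, 58.4, 47 and 22, in the same order. Rich peaks were fewer after Aβ there too, at 948 and 170 for 82-kDa ChAT and 137 and 64 for SATB1. A high rate on rich tiles and its fall after Aβ were therefore not particular to the windows. Per Mb of all other window sequence there were 4.02, 2.35, 3.42 and 2.92 other peaks. Set apart in this way, the remainder of the windows differed less between the lists than the satellite did. With all rich peaks left out (a setting added once the lists had been examined), the share of peaks in the windows differed by -2.11 points for 82-kDa ChAT (interval -2.83 to -1.40) and -6.69 for SATB1 (interval -7.97 to -5.41).

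Within the windows, 54 blocks of at least 5 kb were rich in CATTC, and the rich peaks fell on them very unequally. Only peaks that were rich themselves were counted in the blocks. Peaks in sparser blocks reach that threshold less readily, and its part in the densities below was not tested. In 43 of these blocks over 90% of the pentamers lay on the same strand. The blocks were grouped by pentamer density, with bounds set once the peaks had been counted. The 12 blocks with 7 or more pentamers per 100 nt (7.26 to 10.2, 746 kb in all) held 419 peaks for 82-kDa ChAT after vehicle, or 5.61 per 10 kb, and 128 after Aβ, or 1.71 per 10 kb. The 36 blocks with fewer than 5 (4.17 to 4.96, 781 kb in all) held 136, or 1.74 per 10 kb, after vehicle and 12, or 0.154 per 10 kb, after Aβ.

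For SATB1 the densest group of blocks also held more rich peaks per 10 kb than the sparsest group. There were 0.804 per 10 kb after vehicle and 0.683 after Aβ in the blocks with 7 or more pentamers per 100 nt, against 0.256 and 0.0897 per 10 kb in those with fewer than 5. In the 6 blocks between these bounds, the lists for 82-kDa ChAT held 4.34 and 0.878 peaks per 10 kb, that for SATB1 after vehicle 0.494, and that for SATB1 after Aβ none of its rich peaks. The SATB1 vehicle peaks were uneven within the densest group. Of its 60, the blocks at chr4:49091201-49156600, chr10:41842801-41916200 and chr4:49631201-49658200 held 20, 18 and 8. The rest of that group ranged from 0 to 3.57 per 10 kb, with 0.0715 in the block at chr17:21851201-21992000. Whether SATB1 peaks followed pentamer density from block to block was not tested. After vehicle 47 of the 54 blocks held a rich peak for 82-kDa ChAT, and 4 blocks held no rich peak of any list. The median share of 51-mers found more than once in the assembly did not rise or fall steadily with pentamer density. From the sparsest blocks to the densest it was 41.5%, 13.6% and 15.4% for 82-kDa ChAT after vehicle. It was 30.7%, 13.5% and 26.0% after Aβ, and 52.3%, 14.5% and 36.6% for SATB1 after vehicle. For SATB1 after Aβ it was 10.0% in the sparsest blocks, with only 7 peaks, and 23% in the densest.

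**Figure D2:**
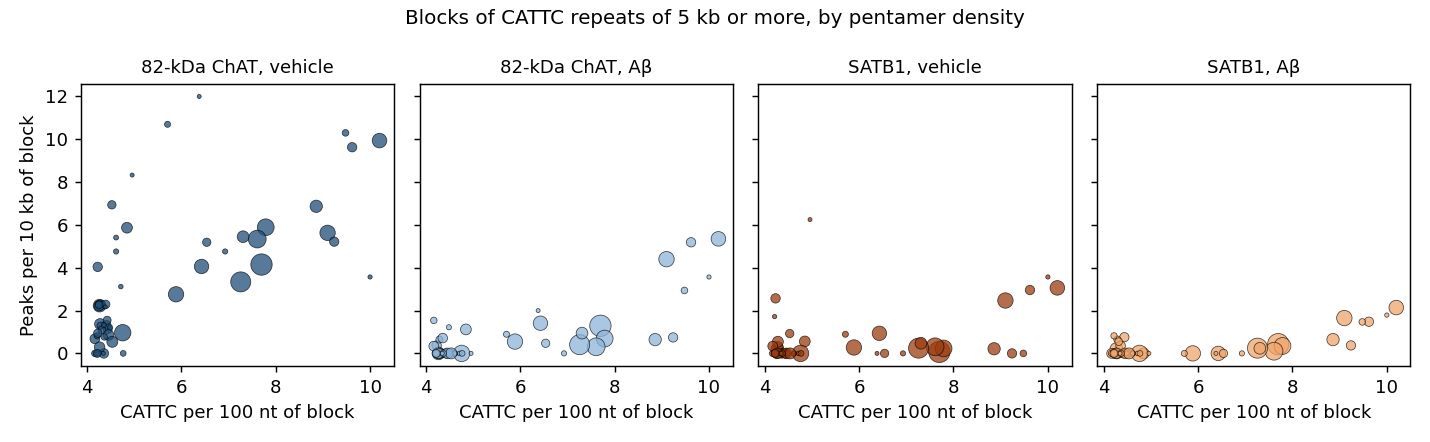
CATTC-rich peaks per 10 kb against CATTC pentamers per 100 nt for the 54 blocks of at least 5 kb, by list. The area of each circle grows with the kb of rich sequence. The block of chromosome 4 with 10.2 pentamers per 100 nt holds 9.94 peaks per 10 kb for 82-kDa ChAT after vehicle, 5.35 after Aβ, 3.06 for SATB1 after vehicle and 2.14 after Aβ.

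Peaks closer than 10 kb, whatever their list, were joined into 939 clusters, of which 683 were lone peaks. The 44 clusters of 5 or more peaks held 993 peaks (45.7%), and in 32 of them most peaks were rich in CATTC. The 10 largest held 658 peaks (30.3% of all in the windows). They took 40.2% (vehicle) and 33.6% (Aβ) of the window peaks for 82-kDa ChAT and 15.6% and 14.4% of those for SATB1.

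The largest cluster, at chr4:49091252-49156628, held 134 peaks, all rich in CATTC, of which 65 were for 82-kDa ChAT after vehicle, 35 after Aβ, 20 for SATB1 after vehicle and 14 after Aβ. Every pentamer in these peaks read CATTC on the plus strand. The next, at chr10:41855408-41916270, held 103 peaks (41, 32, 18 and 12 in the same order), with 99.7% of pentamers reading GAATG on the plus strand. On chromosome 17, a cluster at chr17:21852114-21992040 held 58 and 18 peaks for 82-kDa ChAT but 1 and 6 for SATB1. On chromosome 21, the cluster at chr21:10652155-10737235 held 51 and 6 peaks for 82-kDa ChAT and 2 and 3 for SATB1. Both of these clusters held fewer SATB1 peaks than those of chromosomes 4 and 10. A second cluster of chromosome 17, at chr17:26782987-26885308, held 52 and 3 peaks for 82-kDa ChAT.

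In some windows even the largest cluster was small. That of chromosome 9, at chr9:40909142-40913598, had 5 peaks, none rich, and that of chromosome 1 had 5, all rich. The largest on chromosome 5 had 11 peaks and that on chromosome 20 had 9, all rich, though only 0.167% and 0.0865% of their window tiles were. The largest on chromosome 18 and on chromosome 3 had 2 peaks each, none rich. The rich share of window tiles was 0 on chromosome 18 and 0.00340% on chromosome 3, the lowest of the 14 windows. It was 7.30% on chromosome 10, the highest. The chromosome 18 window still held 6 rich peaks, so a rich peak need not lie in a rich tile.

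A peak's nearest neighbour in its own list lay closer in the windows than elsewhere. For 82-kDa ChAT, 747 of 1036 peaks had a neighbour within 10 kb after vehicle (72.1%, against 32.0% of the whole list) and 159 of 384 after Aβ (41.4%, against 9.68%), a difference of -30.7 points (interval -36.3 to -25.1), or -16.3 (interval -22.0 to -10.6) without rich peaks. For SATB1 the numbers were 140 of 418 (33.5%, against 12.9%) and 87 of 333 (26.1%, against 8.57%), a difference of -7.37 points (interval -13.9 to -0.829). The interval for SATB1 included 0 with neighbours counted within 1 kb (-1.93) or 50 kb (-2.75), without rich peaks (-1.95) and without Alu matches (-4.33). Fewer peaks in a list leave fewer neighbours within a set distance. The part of the lower peak numbers after Aβ in these differences was not tested. The median distance was 1.27 kb for 82-kDa ChAT after vehicle and 29.2 kb after Aβ, and 29.3 and 34.0 kb for SATB1. Rich and other peaks were far apart in this: 98% of the rich vehicle peaks for 82-kDa ChAT had such a neighbour, with a median distance of 0.387 kb, against 26.4% of the others, with a median of 41.7 kb. For SATB1 after Aβ the shares were 67.2% of the rich peaks and 16.9% of the others.

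The median peak in the windows was longer than that of the rest of its list, and the rich peaks had the highest medians. The median length for 82-kDa ChAT was 171 nt after vehicle (95% order-statistic interval 165 to 182) against 136 outside, and 135 nt after Aβ (interval 124 to 145) against 109. For SATB1 it was 143 nt after vehicle (interval 138 to 148) against 129, and 145 after Aβ (interval 140 to 151) against 134. Peaks over 1 kb numbered 145 in the list for 82-kDa ChAT after vehicle, of which 76 lay in the windows (52.4%), and 68 after Aβ, of which 41 did (60.3%). For SATB1 26 of 52 and 25 of 38 did.

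The fewer rich peaks after Aβ had higher median lengths. For 82-kDa ChAT the median length of rich peaks was 231 nt after vehicle (interval 217 to 249) and 578 nt after Aβ (interval 514 to 677), whereas that of the others was 132 and 99 nt, below the medians of 136 and 109 nt outside the windows. For SATB1 rich peaks had medians of 541 nt (interval 430 to 660) and 712 nt (interval 299 to 885), whose intervals overlapped. Rich peaks for 82-kDa ChAT that overlapped a peak of the other treatment had medians of 727 nt (136, vehicle) and 680 nt (135, Aβ). Those without overlap had medians of 192 nt (525 peaks) and 79 nt (30 peaks), so neither set was longer after Aβ. For SATB1 the medians were 828 and 1197 nt with overlap and 444 and 280 nt without. Bases under rich peaks fell less in number than the peaks did, from 299761 to 116330 nt for 82-kDa ChAT and from 71561 to 54299 nt for SATB1. MACS joins nearby signal into a longer peak, so the number and the length of peaks in a block are not independent.

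**Figure D3:**
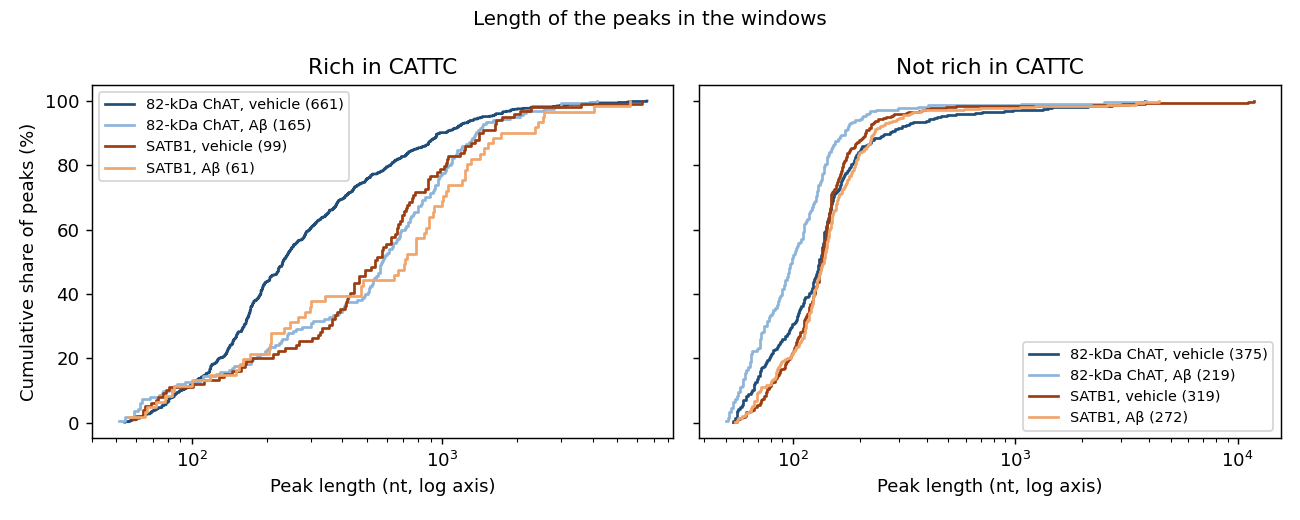
Cumulative share of the peaks in the windows by length (log axis) for peaks rich in CATTC (left) and the others (right), with the number of peaks of each list in the key. Among rich peaks the curve for 82-kDa ChAT after vehicle, has a median of 231 nt against 541 to 712 nt in the 3 other lists, with curves that cross at the shortest lengths, while the curves of the other peaks stay within medians of 99 to 138 nt.

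The score given by MACS (the p-value on a negative log10 scale, multiplied by 10) ranks peaks only within a list. Of the 100 highest scores in the list for 82-kDa ChAT after vehicle 63 lay in the windows, 61 of them rich in CATTC. The number was 25 after Aβ (23 rich), 22 for SATB1 after vehicle (14 rich) and 7 after Aβ (4 rich). The highest in the windows for 82-kDa ChAT after vehicle was the peak at chr4:49107021-49110197, 3177 nt long with a score of 2410.79 and 332 CATTC. The highest for SATB1 after Aβ lay over it, at chr4:49107027-49111057, with a score of 236.13. For 82-kDa ChAT after Aβ it was the peak at chr5:49656266-49660436, with a score of 525.21, which was also the longest of that list in the windows at 4171 nt. All of these were intergenic.

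Peaks rich in CATTC were the ones found after both treatments. Of the 1036 vehicle peaks for 82-kDa ChAT in the windows, 147 shared at least 1 nt with a peak after Aβ (14.2%, interval 12.1 to 16.5, against 5.59% of the whole list), namely 136 of 661 rich peaks (20.6%) and 11 of 375 others (2.93%). Seen from the list after Aβ, 146 of 384 overlapped a vehicle peak (38.0%, against 6.83% of the whole list), namely 135 of 165 rich peaks (81.8%) and 11 of 219 others (5.02%). The windows thus held 31.8% of all overlapping vehicle peaks for 82-kDa ChAT. The rich vehicle peaks that overlapped were longer, with a median of 727 nt against 192 nt for the rest, and higher in score, with a median of 331 against 71.3. Longer peaks overlap more readily, and the part of length in these shares was not tested.

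For SATB1 the overlap lay mostly in rich peaks too. Of its 418 vehicle peaks in the windows 29 overlapped a peak after Aβ (6.94%, interval 4.70 to 9.81, against 1.89% of the whole list), 24 of them among the 99 rich ones (24.2%, beside the 20.6% for 82-kDa ChAT) and 5 among the 319 others (1.57%). From the list after Aβ it was 26 of 333 (7.81%, against 0.908%), 21 of them among the 61 rich ones (34.4%). Of the 58 overlapping peaks in the whole vehicle list for SATB1, these 29 were in the windows.

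Alpha satellite was the other main repeat under the peaks. A peak was called alpha-like where the 1000 nt around its midpoint matched themselves at 50% of bases or more when shifted by 160 to 180 nt (the length of a monomer) and at no shift of 2 to 100 nt. For SATB1, 139 of 418 peaks in the windows were alpha-like after vehicle (33.3%, interval 28.8 to 38.0, against 7.15% of the whole list) and 73 of 333 after Aβ (21.9%, interval 17.6 to 26.8, against 1.73%), a difference of -11.3 points (interval -17.7 to -5.00), or -6.94 (interval -14.0 to 0.160) without Alu matches. For 82-kDa ChAT the numbers were 97 of 1036 (9.36%, interval 7.66 to 11.3, against 2.01%) and 60 of 384 (15.6%, interval 12.1 to 19.7, against 1.40%), a difference of 6.26 points (interval 2.22 to 10.3) with fewer such peaks after Aβ, or 0.694 (interval -6.60 to 7.98) without rich peaks. By the same rule 28.2% of the window tiles of 1 kb were alpha-like. Both shares for 82-kDa ChAT and that for SATB1 after Aβ were below this share of the sequence itself. Only that for SATB1 after vehicle was above it. In each list the best shift was most often 171 nt, as in 127 of the 139 peaks for SATB1 after vehicle.

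Alpha-like peaks for 82-kDa ChAT were short, with median lengths of 103 nt after vehicle and 78.5 nt after Aβ, whereas those for SATB1, at 134 and 140 nt, were close to the 135 and 138 nt of all its window peaks that were not rich. Their median scores were 62.6 and 58.2 for 82-kDa ChAT and 58.8 and 56.6 for SATB1, against 70.7, 63.0, 61.6 and 60.2 for all window peaks of these lists. Among those of at most 300 nt, the highest-scoring one for 82-kDa ChAT after vehicle, at chr4:51573626-51573899, scored 149.16, and its 51-mers occurred a median of 282 times in the assembly. That for SATB1 after vehicle, at chr17:26885248-26885308, scored 136.93. In the chromosome 20 window 30 of the 46 peaks for SATB1 after vehicle were alpha-like, against 3 of 12 after Aβ.

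The chromosome 1 and chromosome 5 windows, where SATB1 peaks were more numerous after Aβ, hold another arrangement of alpha satellite, in which the repeat is a pair of unlike monomers. The measure for it was added once the peaks had been counted: 50% identity or more at a shift of 330 to 350 nt, at least 10 points above that at 160 to 180 nt. Such repeats held 99 of the 333 peaks for SATB1 in the windows after Aβ (29.7%, interval 24.9 to 35, against 2.20% of the whole list) and 55 of 418 after vehicle (13.2%, interval 10.1 to 16.8, against 2.81%), a difference of 16.6 points (interval 10.7 to 22.5). Of the 99 peaks after Aβ 71 lay on chromosomes 1 and 5, and of the 55 after vehicle 12 did. Without these windows the difference was 0.489 points (interval -4.80 to 5.77).

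On chromosome 1, 40 of the 56 peaks for SATB1 after Aβ were in 2-monomer repeats, spread over 2.98 Mb at chr1:121762877-124739658, against 7 of 30 after vehicle. On chromosome 5 it was 31 of 44, over 2.44 Mb at chr5:47156070-49592686, against 5 of 15. None of these 71 peaks overlapped a vehicle peak. Such overlap was rare in that list, at 5 of the 272 window peaks not rich in CATTC (1.84%). Its absence therefore does not set these peaks apart. The scores of the 71 peaks were low, with medians of 56.8 and 58.8 against a floor of 50.01 in all lists. Their median identity at the pair's shift was 76.5% on chromosome 1 and 68.9% on chromosome 5, and the best shift was most often 340 nt. The 51-mers of the chromosome 1 peaks occurred a median of 299 times in the assembly and those of the chromosome 5 peaks 322 times, and at least 99.9% of them occurred on each of chromosomes 1, 5 and 19. Reads from these chromosomes therefore cannot be told apart here.

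Chromosome 19 has no window here. Of the 34 peaks for SATB1 in 2-monomer repeats outside the windows after Aβ, 27 were on chromosome 19, against 0 of 31 after vehicle. At least 99.9% of the 51-mers of these 27 peaks also occurred on chromosome 1 and on chromosome 5. Lists for 82-kDa ChAT had few peaks in 2-monomer repeats: 33 of 1036 in the windows after vehicle (3.19%, against 0.822% of the whole list) and 22 of 384 after Aβ (5.73%, against 0.686%), with 8 and 4 of them on chromosomes 1 and 5. Of the window tiles of 1 kb 14.9% were such repeats, with 31.6% on chromosome 1 and 38.2% on chromosome 5 but also 43.2% on chromosome 18, where SATB1 after Aβ had 1 such peak.

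**Figure D4:**
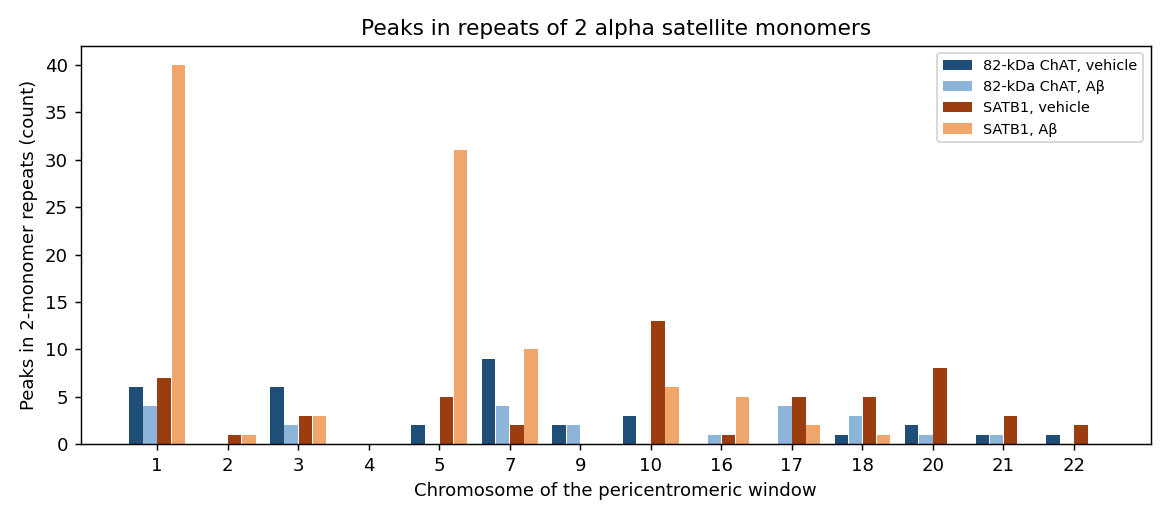
Number of peaks in repeats of 2 alpha satellite monomers in each window, by list (1 library each). The bars for SATB1 after Aβ stand at 40 on chromosome 1 and 31 on chromosome 5 against 7 and 5 after vehicle, and no bar of another window passes 13.

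Counting a peak as alpha satellite by either rule, the share for SATB1 was 41.1% after vehicle (172 of 418, against 8.97% of the whole list) and 42.0% after Aβ (140 of 333, against 3.17%), a difference of 0.894 points (interval -6.20 to 7.99). Without the windows of chromosomes 1 and 5 it was 41.0% and 27.0%, a difference of -14.0 points (interval -21.6 to -6.40). For 82-kDa ChAT the shares were 11.4% (118 of 1036, against 2.64%) and 19% (73 of 384, against 1.90%), a difference of 7.62 points (interval 3.24 to 12), and of 7.89 points without those windows. The CENP-B box was in 61 of the 333 peaks for SATB1 after Aβ (18.3%) and 47 of 418 after vehicle (11.2%), and in 24 of 384 (6.25%) and 24 of 1036 (2.32%) for 82-kDa ChAT. Of the peaks outside the windows 0.384% and 1.17% held it for SATB1 and 0.275% and 0.442% for 82-kDa ChAT, in the same order. Of window tiles of 200 nt 19.1% held it, and of tiles outside 0.323%. The median window peak of each list was shorter than a tile, and a longer stretch holds a motif more readily. Peaks and tiles were not matched for length.

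**Figure D5:**
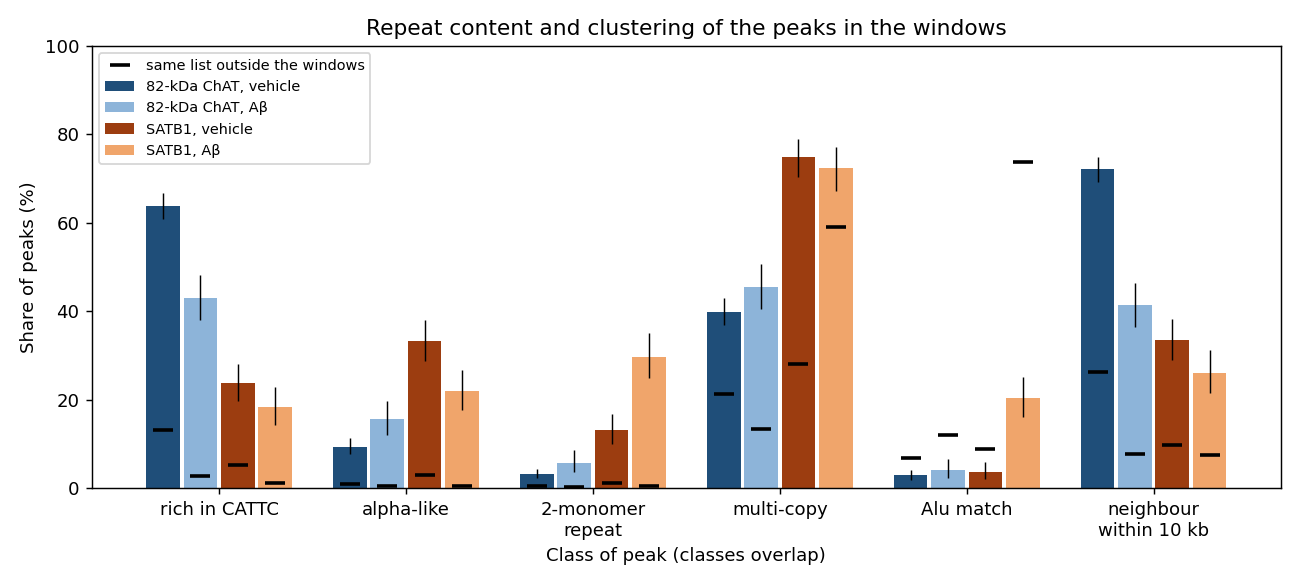
Share of the peaks in the windows in each class (bars, with 95% Clopper-Pearson intervals over peaks) for the 4 lists, with the same list outside the windows as a black dash. The classes overlap. CATTC-rich peaks and close neighbours lead for 82-kDa ChAT after vehicle, at 63.8% and 72.1%, 2-monomer repeats stand at 29.7% for SATB1 after Aβ, and Alu matches for that list drop from 73.8% outside to 20.4% inside the windows.

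Most peaks for SATB1 in the windows lay in sequence of more than 1 copy. A peak was multi-copy with over 50% of its 51-mers found more than once in the 455 sequences of the assembly. This was so of 313 of 418 peaks for SATB1 after vehicle (74.9%, against 34.5% of the whole list) and 241 of 333 after Aβ (72.4%, against 59.8%), and of 413 of 1036 (39.9%, against 23.6%) and 175 of 384 (45.6%, against 15.1%) for 82-kDa ChAT. The differences between treatments, -2.51 points for SATB1 (interval -8.86 to 3.84) and 5.71 for 82-kDa ChAT (interval -0.0973 to 11.5), had intervals that included 0. Peaks rich in CATTC were less repeated at this length than the others. In the vehicle list for 82-kDa ChAT the median share of repeated 51-mers was 20.5% in rich peaks and 100% in the others.

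Alu elements, which lie under most peaks for SATB1 after Aβ, were scarcer in the windows. For that list, 68 of 333 peaks in the windows matched Alu (20.4%, interval 16.2 to 25.2), against 70.8% of the whole list. In the others it was 15 of 418 for SATB1 after vehicle (3.59%, against 8.06%), 30 of 1036 for 82-kDa ChAT after vehicle (2.90%, against 6.32%) and 16 of 384 after Aβ (4.17%, against 11.5%). A match could lie anywhere in a peak. Neither rich nor alpha-like were 15 of the 30, 15 of the 16, 8 of the 15 and all 68. The 8 had a median length of 2634 nt and reached 11847 nt, in ribosomal DNA. Leaving out Alu matches thus also left out some peaks of other repeats.

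Within the windows, the longest peak and the highest-scoring peak for SATB1 after vehicle both lay in the ribosomal DNA. The chromosome 21 window of hg38 holds 3 units with a 45S precursor gene, RNA45SN2, RNA45SN3 and RNA45SN1 in RefSeq, each followed by a spacer. No peak of any list touched the 3 genes, and 20 peaks lay within 35 kb past their ends, a region chosen after the peaks had been looked at. Of these 8 were for 82-kDa ChAT after vehicle, 1 after Aβ, 5 for SATB1 after vehicle and 6 after Aβ. The peaks for SATB1 after vehicle covered 32119 nt, from 4.26 to 16.9 kb past the gene, and those after Aβ 13028 nt. For 82-kDa ChAT they covered 22671 nt after vehicle, from 8.12 to 18.9 kb past the gene, and 3885 nt after Aβ.

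The placing repeated from unit to unit. Past RNA45SN2 the SATB1 vehicle peak at chr21:8225014-8236191 ran over 11178 nt with a score of 483.74, the highest of that list in the windows. Past RNA45SN1 its peak at chr21:8450836-8462682 ran over 11847 nt, the longest of any list in the windows, with a score of 360.34. Past RNA45SN3 that list had 3 peaks of 2237 to 3825 nt, ending 16.3 kb past the gene or nearer. The peaks for 82-kDa ChAT after vehicle began 8.25, 8.65 and 8.12 kb past the 3 genes. After Aβ the 1 peak for 82-kDa ChAT, at chr21:8227980-8231864, lay past RNA45SN2. At least 87.1% of the 51-mers of each of these peaks occurred more than once in the assembly, so the 3 units are not independent observations.

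Fewer peaks touched a gene in the windows than outside, and the satellite peaks hardly any. Intergenic were 90.3% (vehicle) and 85.9% (Aβ) of the window peaks for 82-kDa ChAT and 90.4% and 84.7% of those for SATB1. On the rest of chromosomes 1 to 22, X and Y the shares were 43.4%, 39.8%, 43.7% and 37.3%. Of determined bases 76.2% were intergenic in the windows and 38.3% outside. Of rich window peaks it was 97.9%, 98.8%, 100% and 98.4%. Of the 1790 GENCODE genes in the windows 186 had a peak of any list (10.4%, against 13% of genes outside), and of the 211 protein-coding ones 57 did (27.0%, against 26.9%). The gene with the most peaks was ENSG00000291065, a long noncoding RNA gene on chromosome 10, with 17 rich peaks in its introns, 14 of them for 82-kDa ChAT after vehicle. The next, ENSG00000280441 on chromosome 21, lies across RNA45SN3 and RNA45SN1 and held 12 peaks, 5 of them exonic. FRYL, a protein-coding gene of chromosome 4, had 4 intronic peaks, 3 of them for 82-kDa ChAT after vehicle and 1 for SATB1 after vehicle.

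Of 12 duplicated gene families of these regions, 16 of 196 genes had a peak (8.16%), beside the 10.4% of all genes in the windows. Without the immunoglobulin segments, none of which had a peak, it was 16 of 71 (22.5%). The 10.4% is over all genes, segments included, so it is no measure for the 22.5%. None of the peaks in these families was rich in CATTC. No peak touched the 3 POTE genes (primate ankyrin repeat proteins), the 3 FOXD4L genes (forkhead transcription factors), the 8 TP53TG3 genes or the 125 immunoglobulin segments of the windows. Among 21 zinc finger genes 7 had 9 peaks in all, 4 for 82-kDa ChAT after vehicle, 2 after Aβ and 3 for SATB1 after Aβ. ZNF892 on chromosome 2 held a vehicle peak for 82-kDa ChAT at chr2:95213921-95214066 with a score of 116.97, the highest in that list among the peaks of at most 300 nt that were not rich, alpha-like, multi-copy or matched to Alu. The NBPF genes (neuroblastoma breakpoint family) on chromosome 1 had 3 peaks in 2 of 4 members, NBPF8 and NBPF26, all for 82-kDa ChAT.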

How the data were processed

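Per the study's methods, the authors aligned the reads to hg38 by BWA with default settings and repeat-masking. MACS then called peaks library by library at p below 1e-05, and those that were significant in the matching input were taken out. The deposited files give each peak's position and its MACS score (−10 × log10 of the p-value, lowest 50.01). Tool versions are not given in the sources used here, and read numbers are given as 1 range for all samples, so the depth of each library is unknown. The lists hold peaks alone, so how reads with several equal matches were placed is unknown.

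Peaks were assigned to the windows by midpoint. The windows and classes were chosen with earlier results of these data known. Pentamers, the CENP-B box and self-identity were read from the hg38 sequence, and 51-mers were counted over its 455 sequences. Alu matches came from blastn 2.17.0 at an e-value of 1e-05 against the BCYRN1 and RN7SL1 transcripts, which are Alu-related. Genes came from GENCODE release 44 and the 45S genes from RefSeq (GRCh38.p14). Named were the 10 genes with most peaks, members of 12 duplicated families, the largest cluster of each window, the 10 largest of all, and, per list, the peak highest in score and, among those of at most 300 nt, in pentamer density. Other peaks and genes were named after their values were seen. Intervals were Clopper-Pearson (shares), Wald (differences) and order-statistic (medians), at 95%. The measures were tested on simulated sequences and peaks. Python 3.11.15, numpy 2.4.6, pandas 2.3.3, scipy 1.17.1 and pysam 0.24.0 were used. Alternatives changed the score minimum, windows, thresholds and overlap, or left out CATTC-rich peaks or Alu matches. The input libraries were not analysed here. The sequence of 1 peak is not reported here.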

Additional observations from a re-analysis of the deposited data

Results flagged for a closer look

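In these results the treatment difference pointed in opposite directions for the 2 proteins. With 1 library for each protein and treatment, the difference between the proteins was not tested, and the 2 comparisons share their input libraries.

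The share of window peaks in alpha-like tandem repeats differed between Aβ and vehicle by 6.26 percentage points for 82-kDa ChAT and by -11.3 points for SATB1. Alpha-like peaks were fewer after Aβ in both, at 97 and 60 for 82-kDa ChAT and 139 and 73 for SATB1. The difference for 82-kDa ChAT was 0.694 points (interval -6.60 to 7.98) without peaks rich in CATTC, and that for SATB1 was 0.894 (interval -6.20 to 7.99) when 2-monomer repeats were counted as well. The share of multi-copy peaks differed by 5.71 points for 82-kDa ChAT and by -2.51 points for SATB1, with both intervals including 0.

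The window of chromosome 1 held 19 peaks for 82-kDa ChAT after Aβ and 38 after vehicle (a change of -19) but 56 and 30 for SATB1 (a change of 26). On chromosome 5 the changes were -9 and 29, and on chromosome 7 they were -63 and 18. On chromosomes 1 and 5 the added SATB1 peaks lay mostly in 2-monomer repeats. On chromosome 7, 49 of the 82 vehicle peaks for 82-kDa ChAT were rich in CATTC against 1 of 19 after Aβ, and 22 of the 32 SATB1 peaks after Aβ were alpha satellite by either rule, against 10 of 14 after vehicle.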

How the results depend on the processing

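Of 120 alternative values for 16 results, 86 were counted as the same. A difference was the same if its sign held and its interval still excluded, or still included, 0. A share or median was the same if it stayed within the main interval. Of the others, 10 kept their sign but came to include 0, and 7 kept it and came to exclude 0. A further 6 changed sign, and 11 left the main interval. The shares of peaks in the windows, with a neighbour and rich in CATTC fell after Aβ for 82-kDa ChAT under every alternative tried. With Alu matches left out, added after seeing the data, the difference for SATB1 in the share of peaks in the windows turned to 0.705 and that in the CATTC-rich share to 0.190, its neighbour and alpha-like differences were -4.33 and -6.94, all 4 with intervals that include 0, and the multi-copy difference for 82-kDa ChAT was 5.96, which excluded 0. Among scores at or above the median of the list, the alpha-like difference was 2.99 points for 82-kDa ChAT and -5.47 for SATB1, with intervals that include 0, the multi-copy difference for SATB1 turned to 2.04, and median lengths were 250 and 191 nt for 82-kDa ChAT (vehicle, Aβ) and 156 nt for SATB1 after vehicle. At a self-identity of 60% the alpha-like difference for 82-kDa ChAT was 1.81, and at 45% that for SATB1 was -1.20. For SATB1, the neighbour difference was -1.93 within 1 kb and -2.75 within 50 kb, with intervals that include 0, and the CATTC-rich difference excluded 0 with windows widened (-8.04) or narrowed (-8.27) by 1 Mb, without chromosome 10 (-6.96) and at 2 pentamers per 100 nt (-7.99). The multi-copy difference for SATB1 turned to 0.918 with wider and 2.03 with narrower windows, and for 82-kDa ChAT it excluded 0 without chromosome 10 (7.17) and at over 90% of 51-mers repeated (6.43). The share of vehicle peaks for 82-kDa ChAT overlapping an Aβ peak was 16.6% in narrower windows and 18.3% within 200 nt. With CATTC-rich peaks left out, an alternative added after seeing the data, the alpha-like and multi-copy differences for 82-kDa ChAT were 0.694 and -0.950, the neighbour differences were -16.3 for 82-kDa ChAT and -1.95 for SATB1 (interval -8.09 to 4.19), the overlap shares were 2.93% (82-kDa ChAT) and 1.57% (SATB1), and median lengths were 132, 99, 135 and 138 nt in the order of the lists. The cause of these changes was not tested.

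No paired analysis was possible because each group had 1 library. The depth of each library is unknown, so peak numbers cannot be set against it, and a region without a peak is not shown to be unbound. In hg38 the centromeric alpha satellite is a modelled sequence.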
